A study of Schizosaccharomyces pombe with 6 samples.

Results

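Transcript levels were described in wild-type fission yeast (*Schizosaccharomyces pombe*) during phosphate-replete growth, from the 3 wild-type libraries of the 6 in the series. The other 3 libraries are of a mutant strain and were not used. The libraries were chosen by their label, with earlier results of these data known. All 6988 features of the count table were kept: 5145 coding features, 1527 long noncoding features with SPNCRNA identifiers, 171 tRNA, 53 snoRNA, 49 rRNA, 36 mitochondrial, and 7 snRNA features. The cells were haploid *h-* cells of laboratory strain Sp1, genotype WT, in vegetative log phase at 30°C in ePMGT (enhanced pombe minimal glutamate with thiamine), harvested at an *A*600 of 0.5 to 0.6. The study states *leu1-32 ura4-D18 his3-D1* and an *ade6* allele as the background of its strains. RNA was extracted with hot phenol, selected for poly(A), and sequenced from 3 biological replicate cultures as paired 51-base reads. Totals were 16593476, 21436751, and 19863620 counts in replicates 1, 2, and 3, so that 1 count was worth 0.0603, 0.0466, and 0.0503 counts per 1000000 counts (CPM). A CPM value is a share of a library's counts and grows with transcript length, so genes are ordered by CPM only as shares of counts and are compared in level by RPKM (CPM per kilobase of exon). Neither scale measures molecules per cell. All values are means ± SD of 3 libraries unless stated.

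A growing fission yeast cell spends much of its messenger RNA on a few kinds of work. Ribosomes are built from a fixed set of proteins, most of which are encoded by paired genes in this yeast. Glycolysis and fermentation turn glucose into ethanol, and chaperones fold the new proteins. Fission yeast promoters of ribosomal protein genes often lack a TATA box and carry in its place HomolD, an octamer that acts in either orientation, sometimes with a second element, HomolE, upstream. Genes for mating, meiosis, and spore formation are kept low until nitrogen is limiting. The acid phosphatase gene *pho1*, the phosphate transporter gene *pho84*, and the glycerophosphocholine transporter gene *tgp1* are held down in phosphate-rich medium. Each is repressed by interference from transcription of a long noncoding RNA upstream of it. Those of *pho1* and *tgp1* are *prt* and nc-*tgp1*.

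The promoters of some highly expressed genes are shown first because an octamer they share was found more often the higher the level. The stretches run from 80 to 16 bases before the annotated gene start of RefSeq assembly ASM294v3, 5′ to 3′ on the strand of the gene, with HomolD (CAGTCACA, or TGTGACTG where it lies on the other strand) in capitals. The first 6 are the ribosomal protein genes with the highest RPKM that had a single HomolD within the stretch.
rps27: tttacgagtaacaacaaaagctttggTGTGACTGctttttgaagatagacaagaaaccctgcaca
rpl8: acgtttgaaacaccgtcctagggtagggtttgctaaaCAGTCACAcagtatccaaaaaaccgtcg
rps7: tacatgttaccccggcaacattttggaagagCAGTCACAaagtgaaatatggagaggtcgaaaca
rpl26: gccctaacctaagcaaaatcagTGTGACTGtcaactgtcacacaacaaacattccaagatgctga
rps1601: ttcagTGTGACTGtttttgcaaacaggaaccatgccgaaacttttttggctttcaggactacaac
rps21: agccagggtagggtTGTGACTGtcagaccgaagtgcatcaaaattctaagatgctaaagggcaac
These genes lie on chromosome II, except *rps7* on chromosome I. Their levels ran from 4826.5 ± 447 RPKM for *rps27* through 4526 ± 179 for *rpl8* and 4377 ± 185 for *rps7* to 3933 ± 64.7 for *rps21*.

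The same octamer stood at a like distance before several highly expressed genes outside the ribosomal protein list. The next 4 are those of highest CPM under the same conditions.
tpi1: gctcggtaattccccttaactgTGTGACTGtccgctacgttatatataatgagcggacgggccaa
sks2: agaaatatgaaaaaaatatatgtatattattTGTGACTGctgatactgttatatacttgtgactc
sam1: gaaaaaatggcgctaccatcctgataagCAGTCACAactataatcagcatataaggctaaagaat
cpc2: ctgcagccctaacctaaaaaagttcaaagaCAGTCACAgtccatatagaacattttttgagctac
*tpi1* encodes the glycolytic enzyme triosephosphate isomerase, *sks2* a chaperone that sits on the ribosome, *sam1* the S-adenosylmethionine synthetase, and *cpc2* the ribosome-bound protein RACK1. Their levels were 6970 ± 519, 2011 ± 69.3, 2070 ± 86.9, and 3196 ± 56.2 RPKM.

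HomolD was rare outside the highly expressed genes. It was found on either strand in 177 of 6835 promoters (2.59%), a promoter being the 250 bases before to 50 bases after the annotated start. Among coding promoters its share was 0 of 234 for genes under 1 CPM (95% Wilson interval up to 1.62%), 0.288% from 1 to 10 CPM, 0.551% from 10 to 100 CPM, 2.93% from 100 to 1000 CPM, and 37.6% (31.1 to 44.6%) at 1000 CPM or more, where 73 of 194 had it. The HomolE core (ACCCTACC) was in 1.42% of all promoters and in 16.0% of coding promoters at 1000 CPM or more, but in only 1 of the 115 of these outside the ribosomal protein list (0.870%). The letters TATAAA were in 47.5% of all promoters and in 37.6% (again 73 of 194) of coding promoters at 1000 CPM or more, and in 46.1% of the 115 outside that list. The core sequences of HomolD and HomolE shared no base in any promoter. These shares are matches of letters in a window and not measured binding.

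**Figure D1:**
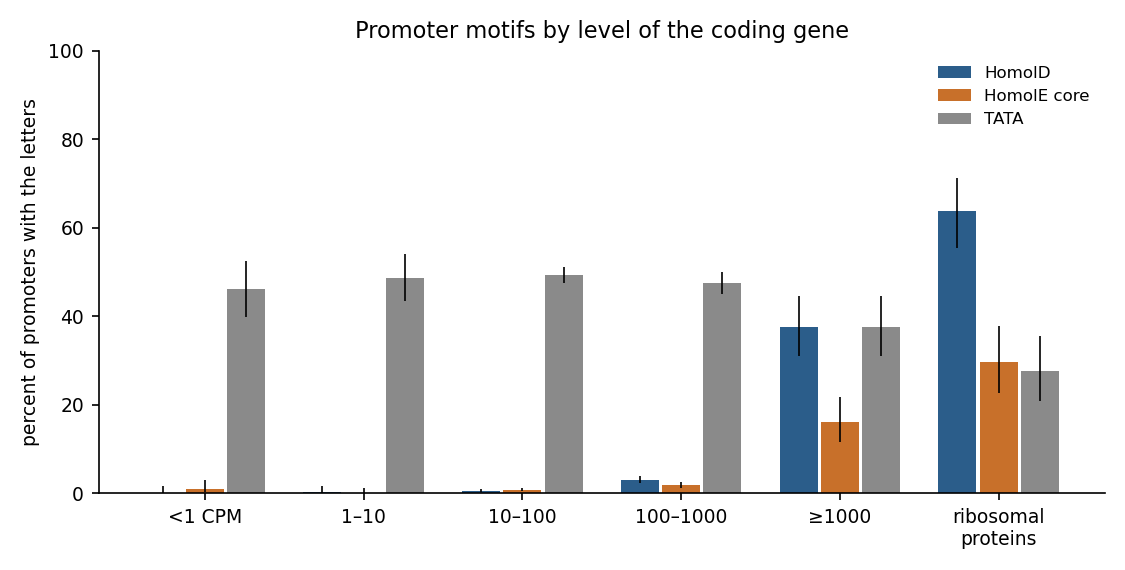
Percent of promoters (y axis) holding HomolD, the HomolE core, or TATAAA on either strand, for coding genes grouped by mean CPM and for ribosomal protein genes (x axis); lines are 95% Wilson intervals. HomolD rises from 0% under 1 CPM to 37.6% at 1000 CPM or more and stands at 63.8% for ribosomal protein genes.

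Of the 137 coding promoters with HomolD, 88 were of ribosomal protein genes. HomolD was in 88 of 138 of their promoters (63.8%, 95% Wilson interval 55.5 to 71.3%), the HomolE core in 41 (29.7%), and TATAAA in 38 (27.5%). Both elements were in 23 promoters, HomolD alone in 65, the HomolE core alone in 18, and neither in 32. Median levels in these groups were 2162, 2038, 1757, and 1494 RPKM, with interquartile ranges that overlapped throughout (1394 to 2720 RPKM with both and 1133 to 2076 RPKM with neither). Position was narrow: of 92 matches in ribosomal protein promoters, 88 began between 80 and 30 bases before the annotated start, with a median of -51 and 62 on the sense strand. In the promoters of other coding genes 27 of 49 matches fell in that stretch. Those 27 genes had a median of 630 CPM, 23 of them were at 100 CPM or more, and 11 of the 27 were at 1000 CPM or more. Besides the genes printed above they included *tif1* (translation initiation factor eIF4A), *tef101*, *tef102*, and *tef103* (the 3 genes of elongation factor EF-1 alpha), *mcp60*, and *ilv5*. Outside the ribosomal protein list, 15 of 115 promoters at 1000 CPM or more had HomolD (13.0%), against 19 of 1581 from 100 to 1000 CPM (1.202%). That list was formed from gene names. Genes counted as outside it include *cpc2*, annotated as 40S ribosomal protein RACK1, and *ubi5*, annotated as a fusion of ubiquitin and 40S ribosomal protein S31.

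Counts were spread over many genes, with no single transcript dominating the libraries. The highest feature, *fba1* (fructose-bisphosphate aldolase of glycolysis), took 8776, 8323, and 8905 CPM in replicates 1, 2, and 3, which is 0.867% ± 0.0306 of all counts. The 10 highest features took 6.27% ± 0.292, the 100 highest 29.0% ± 0.831, and the 1000 highest 75.2% ± 1.79. It took 304 features to reach 50% of all counts, 2194 to reach 90%, and 4309 to reach 99%. Replicates differed in this: 322 features held 50% of the counts in replicate 1, 306 in replicate 2, and 283 in replicate 3. The 2572 coding features of lowest mean CPM together took 6.74% ± 1.16.

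**Figure D2:**
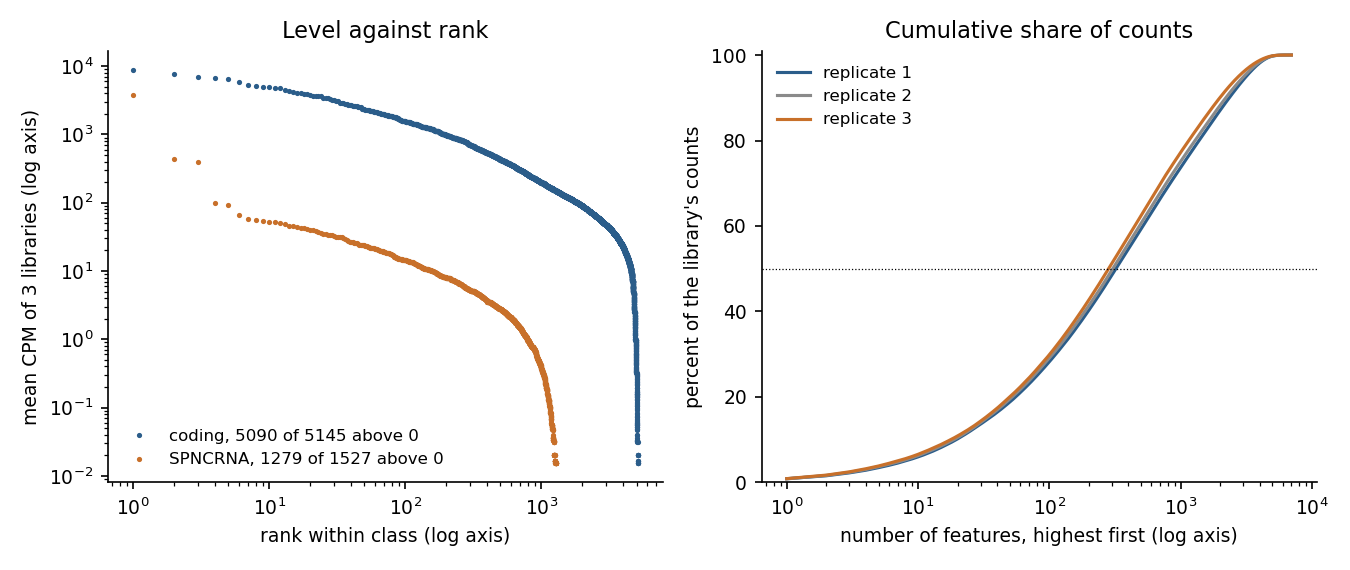
Left, mean CPM (log axis) against rank within the class (log axis) for coding and SPNCRNA features above 0; right, cumulative percent of each library's counts against the number of features, highest first (log axis), with the dotted line at 50%. Coding levels fall smoothly from 8668 CPM, while 1 SPNCRNA feature at 3797 CPM stands far above the next at 441 CPM.

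Of the 20 coding genes with the largest shares of counts, 7 were genes of glycolysis and fermentation, 3 chaperone genes, and 2 genes of uracil salvage. The glycolytic genes were *fba1* (8668 ± 306 CPM), *tpi1* (6670 ± 497), *gpm1* (phosphoglycerate mutase, 4946 ± 236), *pyk1* (pyruvate kinase, 4750 ± 205), *pgk1* (phosphoglycerate kinase, 3914 ± 77.5), *eno101* (enolase, 3859 ± 414), and *adh1* (alcohol dehydrogenase, 3759 ± 59.8). The chaperone genes were *hsp90* (5868 ± 550 CPM), *ssa2* (an Hsp70, 5304 ± 333), and *sks2* (4256 ± 147). *urg1*, annotated as a GTP cyclohydrolase II, had 6814, 8098, and 8252 CPM, and *urg2*, annotated as a uracil phosphoribosyltransferase, had 6060, 7210, and 7685 CPM. In both *urg* genes replicate 1 was the lowest and the other libraries were close to each other. *act1* (actin) had 4748 ± 409 CPM and *rpl8* 4083 ± 161 CPM.

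The remaining genes of these 20 were in none of the lists. *met26* (homocysteine methyltransferase, 6541 ± 285 CPM), *shm1* (serine hydroxymethyltransferase, 4884 ± 171 CPM), and SPBC8D2.18c (adenosylhomocysteinase, 4106 ± 152 CPM) encode enzymes of one-carbon and methionine metabolism, as does *sam1*, which ranked just below them (3706 ± 156 CPM). This grouping was made after their values were seen. *pma1*, the proton pump of the plasma membrane, had 5130 ± 77.6 CPM, *knh3* had 4426 ± 249 CPM, and SPAC1039.02, annotated as a phosphatase, had 4122 ± 447 CPM.

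Ranked per length, short genes moved up, and 12 of the 20 highest coding genes were ribosomal protein genes. *urg2* was first with 6115, 7275, and 7754 RPKM, and *tpi1* (6970 ± 519 RPKM) and *fba1* (6777 ± 239 RPKM) differed from it and from each other by less than the spread between libraries. *gpm1* followed at 6252 ± 299 RPKM. Next were *rps27*, *rpl8*, *rps7*, *urg1* (4273 ± 437 RPKM), *rpl26* (4087 ± 262), and *rps1601* (4008 ± 249). Others among the 20 were *ppi1* (a cyclophilin, 3975 ± 310 RPKM), *ubi1* (a fusion of ubiquitin and ribosomal protein L40, 3972 ± 194), and *tma19* (translationally controlled tumor protein, 3937 ± 146). The 8 genes from *rpl26* to *rps20* in this order lay between 4087 and 3852 RPKM, and neighbours among them down to *rps102* (3925 ± 51.4 RPKM) differed by less than 1 SD. The rest of the 20 were *rps20* (3852 ± 126 RPKM), *rps1901* (3821 ± 132), *rpl3401* (3457 ± 29.3), *rps2502* (3447.5 ± 361), and *rps801* (3369 ± 167). At the other end *pma1*, eighth in share of counts, had only 1148 ± 17.3 RPKM, since its exon length is 4470 bases.

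The genes of translation were high as a group. The 138 ribosomal protein genes took 17.4% ± 0.182 of all counts and had a median of 1930 ± 13.1 RPKM, against 33.4 ± 3.55 RPKM for all coding features. All but *rpl1201* were at 100 CPM or more, and 79 were at 1000 CPM or more. They made up 68 of the 100 coding genes of highest RPKM. Single genes ranged from 43.5 to 4826.5 RPKM. The 9 genes of the elongation factor list were all at 100 CPM or more, with a median of 1043 RPKM. The highest of them were *tif512* (eIF5A, 3270 ± 91.1 RPKM), *tef5* (the exchange factor subunit of EF-1, 3167 ± 196), and *tef103* (1401 ± 87.9), and the lowest were *eft201* (184 ± 5.24), *eft202* (253 ± 5.12), and *tef102* (579 ± 51.3). *tef101* to *tef103*, *eft201*, and *eft202* have near-identical copies, so how their reads were divided is uncertain.

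Ribosomal proteins encoded by several genes were compared with those encoded by one, with families formed from gene names. The names placed *rpl8* (4526 RPKM) in the same family as *rpl801*, *rpl802* (653 RPKM), and *rpl803*, and their products were not compared. The values for paralogues and families that follow include this family, also in the counts above 2 and 5 times. The 20 genes without a paralogue had a median of 2763 RPKM, and the 118 genes with a paralogue 1754 RPKM. Summed over paralogues, the 56 families had a median of 3760 RPKM, with a coefficient of variation of 35.2% against 50.9% for the single members. It was 35.9% for the 20 genes without a paralogue. Summing values lowers this coefficient by itself, so the contrast does not show that paralogues balance each other. Within families the highest member was a median of 1.81 times the lowest. It exceeded 2 times in 25 of the 56 families and 5 times in 7. Per length, the most unequal family was *rpl16*, with *rpl1602* at 1945 RPKM, *rpl1601* at 1199, and *rpl1603* at 43.5 RPKM. Their gap was smaller in CPM, at 1445, 824, and 115 CPM, so it depends in part on annotated exon length. *rpl1603* had 53.8, 41.5, and 35.2 RPKM in replicates 1, 2, and 3, far below its paralogues in each library. *rpl3401* (3457 RPKM) stood above *rpl3402* (236), *rpl1202* (807) above *rpl1201* (78.6), *rpl3001* (1897) above *rpl3002* (245), and *rpl101* (3334) above *rpl102* (473). Of the 138 genes, 8 have a near-identical copy and their split between copies is uncertain.

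Isozymes of glycolysis and fermentation differed by orders of magnitude. The 19 genes of the list took 4.99% ± 0.0700 of all counts, with a median of 1079 RPKM; 12 were at 1000 CPM or more. Enolase reads fell on *eno101* (2649 ± 284 RPKM) and hardly on *eno102* (2.60 ± 0.1999), a ratio of 1021 ± 112. Pyruvate decarboxylase reads fell on *pdc101* (1940 ± 86.7 RPKM), while *pdc201* had 2.97 ± 0.107, *pdc202* 3.596 ± 0.280, and *pdc102* 0.181, 0.0933, and 0 CPM in replicates 1 to 3. Glyceraldehyde-3-phosphate dehydrogenase was less one-sided, with *tdh1* at 10.2 ± 1.97 times *gpd3*, and the RPKM of hexokinase gene *hxk2* was 2.07 ± 0.111 times that of *hxk1*. Among consecutive steps, the aldolase gene *fba1* had 14.6 ± 0.218 times the RPKM of *pfk1* (phosphofructokinase, 463 ± 9.50 RPKM). *tdh1* was the glycolytic gene of large abundance that varied most, at 4534, 3468, and 3111 CPM, with replicate 1 above the others.

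**Figure D3:**
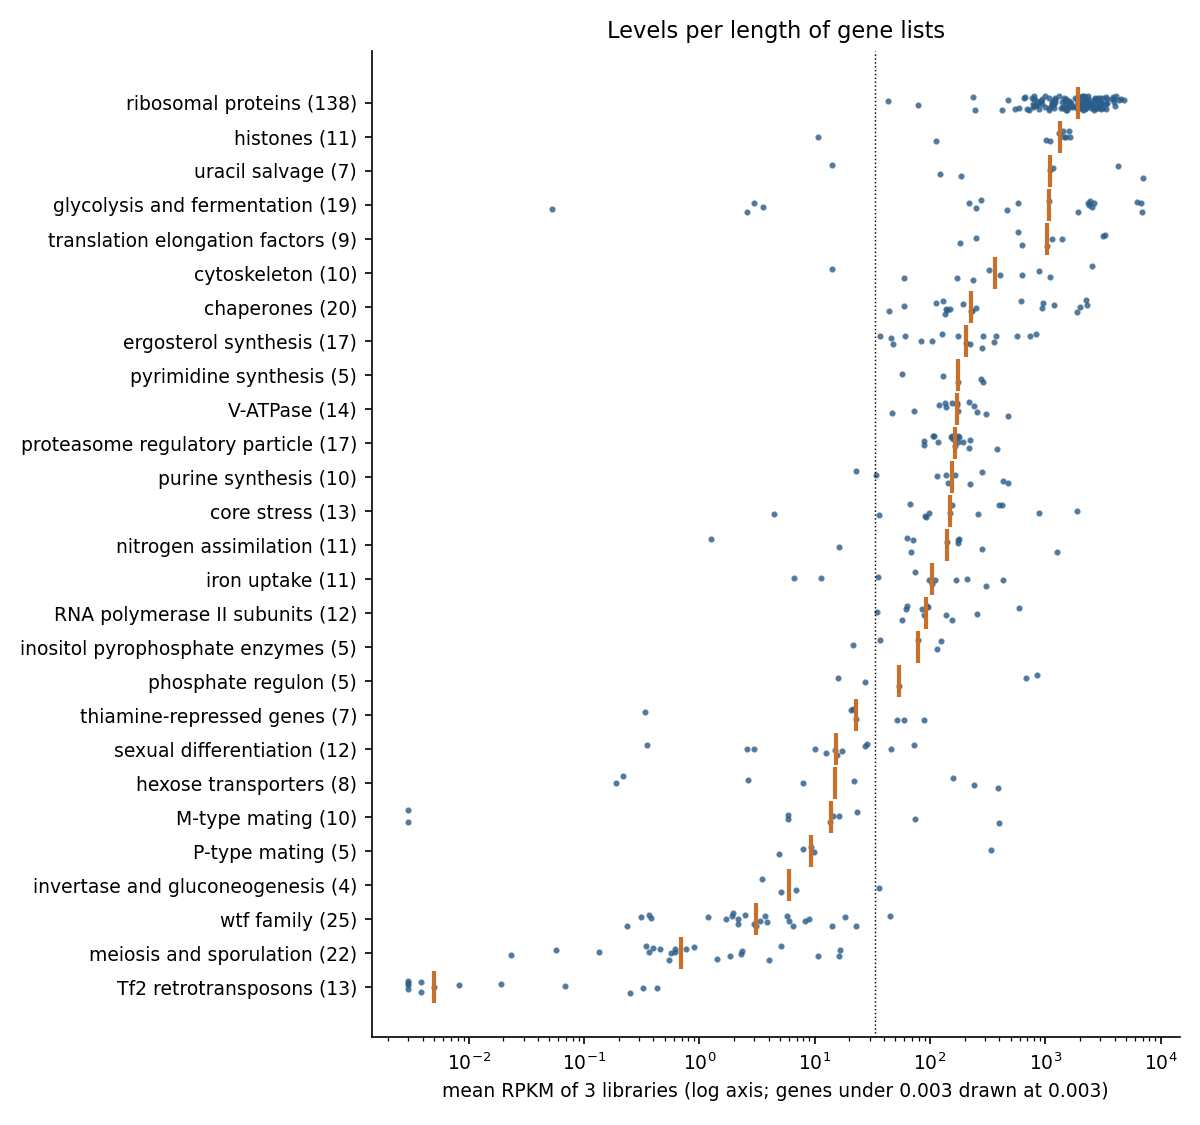
Mean RPKM of 3 libraries (log axis) of each gene (points) in each list of coding genes, with the number of genes in parentheses, the list's median (orange bar), and the median of all coding features (dotted line, 33.4 RPKM); genes under 0.003 RPKM are drawn at 0.003. Ribosomal protein genes lie highest with a median of 1930 RPKM, and meiotic genes and Tf2 retrotransposons lie lowest.

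Chaperone genes were all at 100 CPM or more, with a wide range. *ssa2* (2317 ± 146 RPKM), *hsp90* (2273 ± 213), and *sks2* were highest, and *hsp104* (43.8 ± 5.36), *ssa1* (59.9 ± 12.4), and *cct4* (112 ± 31.9) were lowest. The Hsp70 gene *ssa2* had 39.4 ± 5.21 times the RPKM of its paralogue *ssa1*. The core stress genes had a median of 149 ± 43.9 RPKM, the widest relative spread between libraries of any list with a median above 100 RPKM. *hsp9* (1896 ± 455 RPKM), *gpd1* (881 ± 110), and *tps1* (420 ± 73.2) were highest, and *pyp2* (4.48 ± 0.161), *ddr48* (36.0 ± 6.11), and *srx1* (67.7 ± 8.19) lowest. In *hsp9*, *gpd1*, *tps1*, *ctt1*, *hsp16*, *ntp1*, and the rest of the list but *gpx1* and *ddr48*, replicate 3 was the highest library. Replicate 1 was highest for *gpx1* (319, 254, and 288 CPM) and *ddr48* (54.7, 38.8, and 47.5 CPM). Replicate 3 was below replicate 1 for only 34.7% of all coding genes from 100 to 1000 CPM, and for 26.3% at 1000 CPM or more. For *hsp16* the values were 108, 103, and 171 CPM, and for *ctt1* (catalase) 280, 300.2, and 434 CPM.

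Histone genes showed nearly level output. The 9 genes of the canonical histones lay between 1014 and 1647 RPKM, with *hta2* (1647 ± 123), *hht3* (1605 ± 199), and *hht1* (1507 ± 68.6) highest. The H2A.Z gene *pht1* had 112 ± 6.67 RPKM and the centromeric H3 gene *cnp1* 10.6 ± 0.620 RPKM, so that *hht1* exceeded *cnp1* by 142 ± 2.98 times. In the cytoskeleton list *act1* (2568 ± 221 RPKM), *adf1* (cofilin, 1096 ± 66.4), and *cdc3* (profilin, 886 ± 122) were highest, and *myo2* (14.0 ± 3.24), *rlc1* (59.5 ± 3.77), and *atb2* (172 ± 8.87) lowest.

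The range of levels per length among the subunits of a complex differed between complexes. In the proteasome regulatory particle, 17 genes lay between 88.9 and 378 RPKM, from *rpt1* (88.9 ± 26.3), *rpt6* (88.9 ± 30.4), and *rpn12* (105 ± 28.6) to *rpn11* (218 ± 16.4), *rpn9* (220 ± 9.14), and *rpn8* (378 ± 14.8), a range of 4.25 times. The 14 genes of the V-ATPase lay between *vma16* (47.1 ± 0.876 RPKM) and *vma3* (472 ± 16.0), a range of 10.03 times. Next to them were *vma8* (72.8 ± 18.0) and *vma10* (119 ± 36.2) at the low end and *vma2* (309 ± 19.1) and *vma1* (256 ± 3.11) at the high end. Of the 12 RNA polymerase II genes, *rpb10* was highest (596 ± 23.8 RPKM), followed by *rpb6* (257 ± 32.3) and *rpb11* (154 ± 17.2), and *rpb3* (35.02 ± 0.634), *rpb4* (56.9 ± 22.7), and *rpb9* (62.4 ± 8.71) were lowest, a range of 17.0 times. The genes of the largest polymerase subunits were alike, with *rpb1* at 1.05 ± 0.0981 times *rpb2*. The ranges per length of the polymerase and the V-ATPase depend on annotated exon length. In CPM, *rpb3* (141) was not the lowest polymerase gene, and *rpc10* (31.5) was. Likewise *vma16* (144 CPM) stood above *vma10* (55.3 CPM).

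The phosphate genes were spread over a wide range in this phosphate-replete medium. *pho1* had 1236, 1404, and 1278 CPM and *pho84* 1318, 1514, and 1474 CPM, among the 194 coding genes at 1000 CPM or more. Per length, *pho1* had 844 ± 56.4 and *pho84* 683 ± 49.3 RPKM, against 53.7 ± 3.64 for *pho7*, the transcription factor gene of the regulon, 27.3 ± 1.798 for *tgp1*, and 15.9 ± 1.01 for *ecl3*. *pho1* was thus 31.02 ± 3.55 times *tgp1* on that scale. The noncoding RNAs of these loci had 14.0 ± 0.636 CPM (*prt2*), 12.4 ± 0.553 CPM (nc-*tgp1*), and 1.72 ± 0.467 CPM (nc-*pho1*). The inositol pyrophosphate sensor gene *pqr1* (also named *spx1*) had 124 ± 11.1 RPKM. Of the genes of inositol pyrophosphate metabolism, *aps1* had 116 ± 9.18, *siw14* 79.5 ± 3.97, *kcs1* 36.97 ± 3.96, and *asp1* 21.4 ± 1.91 RPKM.

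Genes that respond to nutrients were measured in a medium with thiamine and glutamate. The thiamine-repressed gene *nmt1* was nearly silent, with 0.241, 0.513, and 0.503 CPM. The other thiamine genes were not: *pho4* had 88.7 ± 2.07, *thi2* 59.8 ± 2.74, *thi1* 52.2 ± 2.83, *thi9* 23.0 ± 0.537, *thi4* 21.4 ± 2.32, and *bsu1* 20.6 ± 1.62 RPKM. Of the hexose transporter genes, *ght8* (389 ± 5.98 RPKM), *ght5* (241 ± 19.1), and *ght2* (159 ± 7.76) were highest, *ght4* (22.1 ± 0.668), *ght3* (7.92 ± 1.02), and *ght1* (2.64 ± 0.302) were far lower, and *ght6* (0.375 ± 0.146 CPM) and *ght7* (0.358 ± 0.160 CPM) were under 1 CPM in every library. Among genes used on other carbon sources, *inv1* (invertase) had 3.51 ± 0.420, *fbp1* (fructose-1,6-bisphosphatase) 5.09 ± 0.572, and *agl1* 6.89 ± 0.362 RPKM, while *gut2* (36.0 ± 9.28 RPKM) lay near the coding median.

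In nitrogen assimilation the NADP-dependent glutamate dehydrogenase gene *gdh1* led with 1275 ± 13.6 RPKM, 79.2 ± 11.0 times *gdh2*. It was followed by *isp4* (283 ± 28.3) and *isp5* (177 ± 20.1), and the lowest were the ammonium transporter gene *amt3* (1.25 ± 0.0662), *gdh2* (16.3 ± 2.22), and *amt2* (62.9 ± 0.940). Iron uptake genes had a median of 104 RPKM, from *fip1* (433 ± 25.5), *frp1* (307 ± 25.97), and *str1* (210.1 ± 6.92) to *fep1* (35.7 ± 1.996), *str2* (11.4 ± 0.851), and *sib1* (6.66 ± 0.267). In ergosterol synthesis *erg5* (828 ± 70.4), *erg25* (737 ± 42.3), and *erg6* (563 ± 36.4) were highest, and *spo9* (37.1 ± 5.15), *erg27* (46.1 ± 1.89), and *erg7* (47.9 ± 3.72) lowest.

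The genes of uracil and purine metabolism ranged from *urg1* and *urg2*, the highest features by CPM after *fba1*, to *ura4* at 0. Beside *urg1* and *urg2*, *uck2* had 1174 ± 92.1, *urg3* 1104 ± 100.4, *urh1* 187 ± 56.7, *fur4* 122 ± 8.70, and *cdd1* 14.2 ± 4.47 RPKM. Genes of pyrimidine synthesis were steadier, with *ura3* at 287 ± 2.30, *ura6* at 279 ± 5.04, *ura5* at 177 ± 8.55, *ura1* at 130.0 ± 2.001, and *ura2* at 57.4 ± 1.32 RPKM. *ade10* (473 ± 14.5), *ade2* (428 ± 22.6), and *ade4* (285 ± 12.7) were the highest purine genes, and *ade8* (116 ± 3.51), *ade5* (33.8 ± 11.0), and *ade9* (22.9 ± 6.57) the lowest. *ura4*, the gene of the *ura4-D18* allele, had 0 counts in all 3 libraries. *his3* had 10.8, 14.6, and 11.8 CPM, *leu1* 553 ± 12.05 CPM, and *ade6* 242 ± 12.8 CPM; these genes carry the other marker alleles of the stated background.

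Genes of the sexual cycle were mostly low, with exceptions. The 22 genes of meiosis and sporulation had a median of 0.688 ± 0.149 RPKM, 8 of them were under 1 CPM, and *spo15* alone passed 100 CPM (102 ± 38.6 CPM). Per length, *spo15* (16.4 ± 6.25), *isp3* (16.2 ± 1.94), and *spo3* (10.8 ± 0.204) were highest, and *spo4* (1 count each in replicates 2 and 3), *rec8* (0.106 ± 0.0537 CPM), and *mug28* (0.245 ± 0.0511 CPM) lowest. Of the sexual differentiation genes, *byr1* (73.0 ± 9.88), *gpa1* (46.0 ± 1.57), and *mei2* (28.6 ± 0.686) were highest, and *mei3* (0.348 ± 0.109), *fus1* (2.58 ± 1.14), and *rep1* (2.98 ± 0.0780) lowest. *ste11*, the master regulator of differentiation, had 17.3 ± 1.61 RPKM.

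The labels give the mating type *h-*, and pheromone genes were measured from both mating types. Among the M-factor genes *mfm2* had 396 ± 52.1, *mfm1* 13.7 ± 1.33, and *mfm3* 5.89 ± 0.237 RPKM, which puts *mfm2* 29.1 ± 4.87 times above *mfm1* and 67.3 ± 7.64 times above *mfm3*. *mam4* had 74.1 ± 4.04 and *mam1* 23.3 ± 2.44 RPKM, and *sxa2* 5.92 ± 1.47 RPKM. The mating type genes *mat1-Mc* and *mat1-Mi* were at 0 in every library; both have near-identical copies. Of the P-type genes, *sxa1* had 339 ± 16.5 RPKM, and *map4* (9.95 ± 0.210), *map2* (9.21 ± 1.23), *map3* (7.85 ± 0.467), and *map1* (4.92 ± 1.00) were low.

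The repeated gene families differed in level. Of the 13 Tf2 retrotransposons, 10 were under 1 CPM and 4 (*Tf2-5*, *Tf2-9*, *Tf2-12*, and *Tf2-13*) were at 0 in every library. The highest were *Tf2-11* (2.95, 1.73, and 0.503 CPM), *Tf2-2* (1.99, 1.54, and 0.503 CPM), and *Tf2-10* (1.33, 1.40, and 0.302 CPM), with replicate 3 lowest in each. All 13 have near-identical copies, so how their reads were divided is uncertain. The 25 *wtf* genes, spore killer genes and their relatives, had a median of 3.11 ± 0.202 RPKM, from *wtf14* (44.7 ± 5.74), *wtf11* (22.7 ± 1.64), and *wtf1* (18.5 ± 5.44) to *wtf18* (0.310 ± 0.0666), *wtf16* (0.364 ± 0.115), and *wtf2* (0.235 ± 0.250); 8 of them have near-identical copies.

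A zero in the table had several forms. In all, 485 of 6988 features (6.94%) were at 0 in every library, which allows up to 3 counts over the 3 libraries, or 0.0518 CPM. They comprised 248 SPNCRNA features (16.2% of that class), 118 of 171 tRNA features, 55 coding features (1.07%), 14 rRNA and 14 snoRNA features, and all 36 mitochondrial features, which are listed at 0. Of the 55 coding features, 33 have a near-identical copy, meaning a match of 95% identity or more that spans 50% or more of its length. Of the 22 without a copy, 7 lie almost wholly (at least 99% of their exon length) within a feature on the same strand, such as *sfc7* (a TFIIIC subunit), *tco1*, and *ina22*. The other 15 included *ura4*, *coa3* (cytochrome oxidase assembly), *ina17* (ATP synthase assembly), *mzt1* (spindle organization), *ost5* (oligosaccharyltransferase), and *new15*. Among all 109 coding features with a copy, 30.3% were at 0 and 65.1% under 1 CPM, against 0.437% and 3.34% of the 5036 without one. Whether the genes at 0 are transcribed cannot be told from these counts.

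Position within other features went with zeros only on the same strand. Of 35 coding and SPNCRNA features covered to at least 99% by features on the same strand, 34 were at 0. Of 492 covered to that extent on the opposite strand alone, 15 were at 0 (3.05%), against 126 of 2515 that overlap no feature (5.01%). The library kit keeps the strand; no source used here states the strand setting of the counting step.

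Genes near the ends of chromosomes I and II were low. The median coding gene had 61.3 CPM on chromosome I, 65.3 on II, and 55.7 on III. For the 71 genes of chromosome I that lie 100 kb or less from an end the median was 0.664 CPM, and for the 66 such genes of chromosome II 0.433 CPM. Of the 55 coding features at 0, 26 lay there. Without genes that have near-identical copies the medians were 5.17 CPM for 41 genes on I and 3.92 CPM for 32 genes on II, still well below the chromosome medians.

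The most common coding genes were neither near zero nor near the top. Of 5145 coding features, 239 (4.65%) were under 1 CPM, 348 from 1 to 10, 2725 (53.0%) from 10 to 100, 1639 from 100 to 1000, and 194 (3.77%) at 1000 CPM or more. The 194 highest held 40.5% ± 1.21 of all counts and the 2725 in the 10 to 100 class 12.4% ± 1.502. The median was 61.3 CPM, with quartiles of 24.98 and 148 CPM.

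The genes of these classes differed in build. Median exon length was 837 bases under 1 CPM, 1694 from 10 to 100 CPM, 1930 from 100 to 1000, and 1045 at 1000 CPM or more. The last value joined short ribosomal protein genes (606 bases) to other genes of that level (1777 bases). Median GC content of the exons was 36.5% under 1 CPM, 36.6% from 10 to 100 CPM, 38.2% from 100 to 1000, and 43.2% at 1000 or more. It was 44.2% for ribosomal protein genes and 42.0% for the other genes at 1000 CPM or more, so the higher GC content was in both. An intron was annotated in 52.4% of genes from 10 to 100 CPM, in 54.3% of ribosomal protein genes, and in 16.5% of the other genes at 1000 CPM or more.

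Long noncoding features made up 21.9% of the table by number and about 1% of counts. SPNCRNA features took 1.05% ± 0.0519 of all counts, and coding features 98.9% ± 0.0557. The SPNCRNA median was 1.11 ± 0.236 CPM and 1.25 ± 0.222 RPKM, against 61.3 ± 6.58 CPM and 33.4 ± 3.55 RPKM for coding features. Of the 1527 features, 740 (48.5%) were under 1 CPM, 629 from 1 to 10, 155 from 10 to 100, and 3 above 100 CPM. Only 11 reached the coding median per length (0.771% of those with a length), and 39 (2.73%) the lower quartile of coding features.

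**Figure D4:**
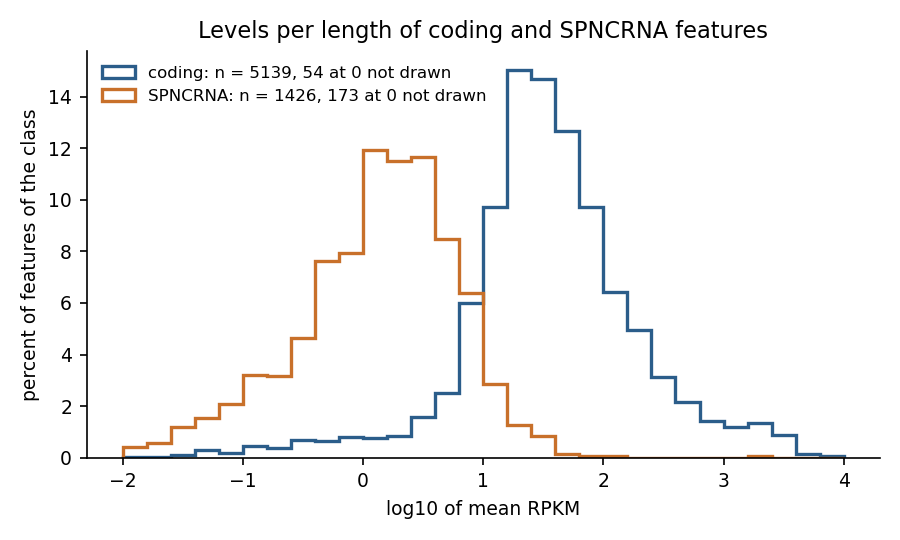
Percent of features of each class (y axis) by log10 of mean RPKM (x axis) for coding and SPNCRNA features with an annotated length; features at 0 are counted in the class but not drawn. The SPNCRNA distribution lies below the coding one, with medians of 1.25 and 33.4 RPKM.

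A single noncoding RNA stood apart from the rest of its class. *prl53* (SPNCRNA.53), annotated as a poly(A)-bearing noncoding RNA on chromosome I, had 64224, 80182, and 75080 counts, or 3870, 3740, and 3780 CPM, 36.1% ± 1.46 of all SPNCRNA counts. It was twentieth among all features by CPM and had 2050.1 ± 36.0 RPKM, above the median ribosomal protein gene, with a library spread of 0.0253 on the log2 scale. The coding feature SPAC27E2.11c, of which 94.3% lies within *prl53* on the same strand, had 0.532 ± 0.174 CPM. Without *prl53* the SPNCRNA share of counts was 0.674% ± 0.0477.

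The other leading noncoding RNAs were far lower. SPNCRNA.1626 had 441 ± 20.8 CPM over an exon length of 5113 bases (86.3 ± 4.07 RPKM), with 54.4% of its length antisense to other features, among them *mbx2* at 11.4 ± 0.759 CPM. SPNCRNA.935, annotated as a possible alternative UTR, had 392 ± 31.2 CPM and 92.2% of its length antisense to others. They were followed by SPNCRNA.1644 (97.8 ± 4.62 CPM), *rse1* (SPNCRNA.111, annotated as a repressor of *ste11* acting in cis, 92.9 ± 2.59), SPNCRNA.979 (66.3 ± 3.23), SPNCRNA.904 (57.0 ± 2.97), SPNCRNA.1469 (55.8 ± 3.50), SPNCRNA.605 (53.2 ± 4.57), and SPNCRNA.1471 (52.1 ± 2.64). The 10 together held 48.5% ± 2.06 of SPNCRNA counts.

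SPNCRNA levels moved with overlap. The 309 features that overlap nothing had a median of 0.152 CPM and 0.371 RPKM, with 87 at 0. The 682 partly covered on the opposite strand had 2.18 CPM and 1.67 RPKM, and the 160 fully covered there 0.771 CPM and 0.887 RPKM. The part of reads from neighbouring genes in these values was not tested.

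Small structural RNAs held few counts in these poly(A)-selected libraries. The snoRNA features took 0.0108% ± 0.00159 of counts, rRNA features 0.00616% ± 0.00221, tRNA features 0.000423% ± 6.43e-05, and snRNA features 0.000429% ± 0.000135. The highest were the 28S rRNA feature SPRRNA.49 (52.0, 40.3, and 22.5 CPM, a feature with near-identical copies), *snR30* (18.9 ± 3.72 CPM), *snoU14* (18.4 ± 2.39), and *snR101* (17.2 ± 1.11). Of the 7 features with snRNA identifiers, *snu3* and *snu32*, annotated as U3 snoRNAs, had 1.54 ± 0.458 and 1.48 ± 0.401 CPM, *snu2* had 0.482 ± 0.217, *snu6* 0.476 ± 0.208, *snu1* 0.122 ± 0.0289, *snu4* 0.113 ± 0.111, and *snu5* 0.0758 ± 0.0939 CPM. Of the named noncoding RNAs, *mrp1* (RNase MRP RNA) had 14.5 ± 1.76 CPM, *ter1* (telomerase RNA) 11.1 ± 1.53, *rrk1* (RNase P RNA) 5.18 ± 2.07, and *srp7* (signal recognition particle RNA) 2.66 ± 1.51 CPM.

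Replicate spread depended on level, and not in the way counting alone would give. The SD over libraries of log2(CPM + 0.5) had a median of 0.168 for coding features under 1 CPM, 0.331 from 1 to 10, 0.275 from 10 to 100, 0.0873 from 100 to 1000, and 0.0744 at 1000 CPM or more. The SD expected from counting alone had medians of 0.188, 0.132, 0.0513, 0.0237, and 0.00836. Only under 1 CPM was the measured median below the counting value. A median of SDs over 3 libraries tends to lie below the SD expected, so that difference does not show a spread of counting alone. For SPNCRNA features the medians were 0.264 from 1 to 10 CPM (0.166 from counting) and 0.138 from 10 to 100 CPM (0.0780). No library was a copy of another: the chi-square of the counts per degree of freedom was 17.7 for replicates 1 and 2, 27.1 for 2 and 3, and 64.2 for 1 and 3, as separate cultures may differ by more than counting.

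**Figure D5:**
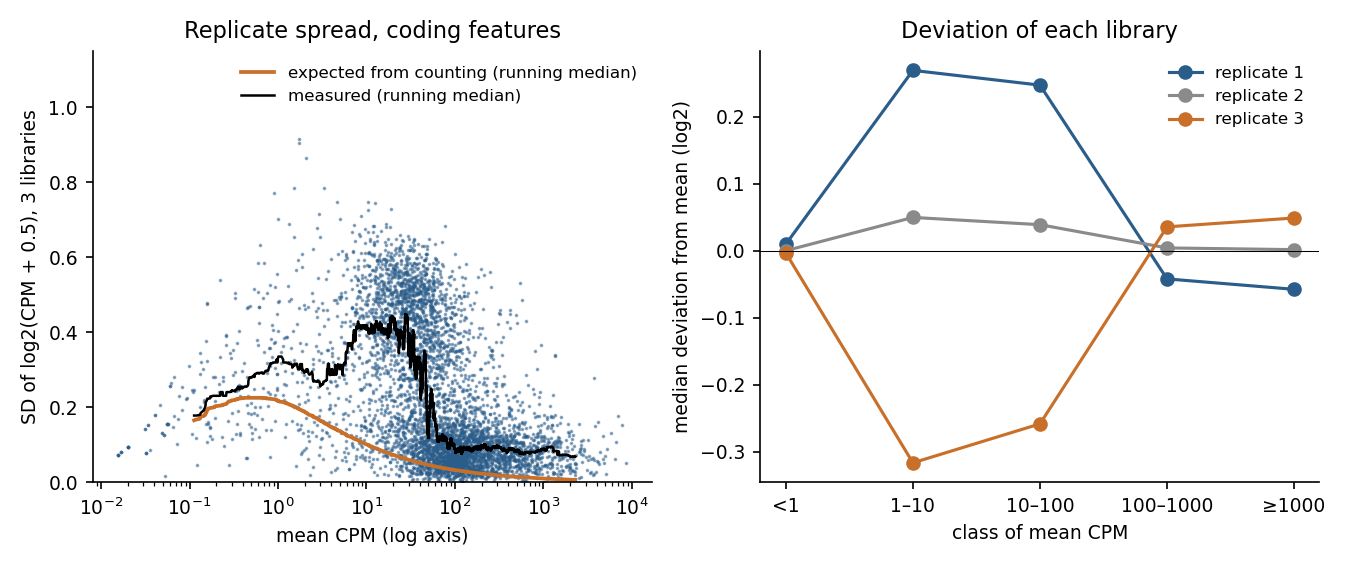
Left, SD over 3 libraries of log2(CPM + 0.5) against mean CPM (log axis) for coding features, with running medians of the measured spread and of that expected from counting; right, median deviation of each library from the 3-library mean (log2) by class of mean CPM. The points from 10 to 100 CPM form an upper and a lower cloud, and replicates 1 and 3 deviate in opposite directions.

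The spread between 1 and 100 CPM lay between replicates 1 and 3. From 10 to 100 CPM the median deviation from the gene's mean was 0.25 in replicate 1, 0.04 in replicate 2, and -0.26 in replicate 3 on the log2 scale, and replicate 3 was below replicate 1 for 74.9% of the 2725 genes. At 1000 CPM or more the signs were turned, at -0.06, 0.00, and 0.05. The median log2 difference of replicate 3 from replicate 1 was -0.52 from 10 to 100 CPM and 0.11 at 1000 CPM or more. With TMM library sizes these became -0.37 and 0.27, each shifted by the same amount, since a library size moves every gene alike. Under that scaling the median spread was 0.142 from 100 to 1000 CPM and 0.137 at 1000 CPM or more. A median of SDs over 2 libraries tends to be lower than one over 3, so values without a library are compared only with each other. Without replicate 3 the median spread was 0.170 from 1 to 10 CPM and 0.138 from 10 to 100 CPM, and for SPNCRNA features 0.0631 under 1 CPM and 0.174 from 1 to 10 CPM. Without replicate 1 the median spread of coding features was 0.297 from 1 to 10 CPM and 0.202 from 10 to 100 CPM, above the values without replicate 3. It was 0.0962 under 1 CPM, 0.0559 from 100 to 1000 CPM, and 0.0437 at 1000 CPM or more.

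Genes of 1 level did not move together. From 10 to 100 CPM the difference of replicate 3 from replicate 1 had modes on either side: 507 genes lay between -1.0 and -0.8, 226 between -0.4 and -0.2, and 482 between 0 and 0.2. The share of genes with a difference under -0.5 fell with level, from 72.3% of 481 genes from 10 to 20 CPM to 23.1% of 532 from 70 to 100 CPM and 2.33% of 430 at 500 CPM or more. GC content went with it: in the 10 to 100 CPM class the median difference was -0.66 for 559 genes under 35% GC and -0.25 for 365 genes at 39% or more. So did length, with -0.67 for 468 genes under 1000 bases of exon and -0.37 for 400 genes of 3000 bases or more. Level was not held constant in the splits by GC content and length. The median difference itself moved with level inside the class, from -0.79 from 10 to 20 CPM to -0.02 from 70 to 100 CPM.

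Product names also separated the genes of this class, by words chosen after the values were seen. Of all 2725 coding genes of the class, 1379 (50.6%) had a difference under -0.5. Of 47 genes named for ribosome biogenesis or rRNA processing, 44 had a difference under -0.5, with a median of -0.97 (interquartile range -1.08 to -0.84). Of 42 helicase genes 36 did, with a median of -0.85, and of 64 splicing or snRNP genes 45 did. Of 87 transporter genes only 2 did, with a median of 0.02 (-0.08 to 0.14), and 17 mannosyltransferase genes had a median of -0.05. Median levels were 38.0 CPM for the ribosome biogenesis genes and 55.0 CPM for the transporters. What sets replicates 1 and 3 apart was not tested.

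Among features of at least 10 CPM, those with the largest spread all fell from replicate 1 through 2 to 3. The same order held for 65.9% of the 2725 coding genes from 10 to 100 CPM. These features were picked by their spread over the same libraries, so they are not further evidence of the pattern. *shg1* (Set1 complex) had 15.2, 10.6, and 5.19 CPM in replicates 1 to 3, *lin1* (U5 snRNP) 17.8, 13.2, and 6.19, *rrp36* (rRNA processing) 25.8, 21.7, and 9.72, *sos7* 13.9, 11.9, and 5.14, and *mdb1* 23.9, 17.1, and 9.01 CPM. Their SDs on the log2 scale were 0.69 to 0.75, where counting gives 0.079 to 0.105. The most variable SPNCRNA features were SPNCRNA.1115 (32.5, 32.2, and 14.2 CPM), SPNCRNA.1600 (44.5, 36.3, and 19.8), SPNCRNA.1118 (26.8, 20.9, and 11.8), SPNCRNA.1192 (14.2, 10.2, and 6.19), and SPNCRNA.863 (50.4, 45.6, and 24.3). In each of these 10 features replicate 3 was the lowest.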

How the data were processed

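The table the authors deposited holds raw counts, in whole numbers, for every feature in every library. Paired reads had been mapped to the ASM294v2 build with HISAT2 version 2.1.0, handled with SAMtools, and counted with HTSeq version 0.10.0, per the study's methods and the submitters' processing notes. The authors' DESeq2 table holds their fold changes, p-values, and averages and was not used here. Only the 3 wild-type columns were analysed, with no test between groups and no comparison with the mutant; edgeR gave library sizes and a common dispersion that is not reported.

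Counts were divided by library totals (CPM) and by exon length (RPKM). Names, biotypes, lengths, overlaps, and promoters came from RefSeq ASM294v3, paired by systematic ID (6836 of 6988 features, the other 152 holding 0.00804% of counts); no coordinates are given because the builds differ. Coding features were taken by systematic ID, so 32 pseudogenes count as coding. Copies were found with blastn version 2.17.0 (95% identity or more, spanning 50% or more of the length). Lists were the 34 of gene names written for this work; *rpn5*, *rpn13*, *mat1-Pc*, *mat1-Pm*, *gut1*, *erg13*, and *sme2* were not paired. The ribosomal protein list was corrected by annotation, after values were seen, by leaving out *rpp1*, *rpp21*, and *rpp40* (RNase P and MRP subunits) and adding *rpl35A01* and *rpl35A02*. The libraries, lists, and rules were chosen with earlier results of these data known. The named genes were the 20 coding genes of highest CPM and of highest RPKM, the 10 highest SPNCRNA features, up to 3 highest and 3 lowest genes of each list, all genes of lists of 8 or fewer, the marker genes, members at 0, and the 5 coding and 5 SPNCRNA features of largest spread at a mean of 10 CPM or more; tRNA, rRNA, snoRNA, and mitochondrial features are mostly given as counts instead. Spread was the SD of log2(CPM + 0.5), beside that of Poisson counts. Simulated data tested the root mean square of these SDs and not their median. Intervals (95%, Wilson) and floors (3 counts) cover counting error only. Alternatives were TMM and RLE sizes of edgeR version 4.0.16 (R version 4.3.3), other filters, classes, and pseudocounts, and leaving out each library. Python version 3.11.15 with numpy 2.4.6, pandas 2.3.3, and scipy 1.17.1 was used.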

Additional observations from a re-analysis of the deposited data

How the results depend on the processing

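No paired analysis was possible because no test between groups was made. Of 253 alternatives over 53 results, 226 stayed within the SD between libraries (1.5 times for a count, the Wilson interval for a motif share). Of the 253, 159 left out a library, and 12 of these moved, as did 15 of the other 94. Leaving out a library cannot move a mean over 3 libraries by as much as their SD. The count of 226 is therefore not a measure of robustness. By RPKM in place of CPM, the 10 highest features held 6.68% of summed RPKM, and 173 features held 50%. SPNCRNA features that overlap no other feature held 0.0673% of counts, with medians of 0.152 CPM and 0.371 RPKM; with at least 10 counts in every library the SPNCRNA medians were 3.30 CPM and 2.63 RPKM. Spread depended on the scaling for abundant coding genes: from 100 to 1000 CPM it was 0.142 with TMM and 0.158 with RLE, and at 1000 CPM or more 0.137 and 0.156. Under 1 CPM it depended on the pseudocount, at 0.393 with 0.1 and 0.0989 with 1 for coding features and 0.319 and 0.0645 for SPNCRNA features. An SD over fewer libraries tends to have a lower median, so the spreads that follow are not set against those of all 3 libraries. Leaving out each library in turn gave a median spread for coding features of 0.0962 to 0.144 under 1 CPM, 0.170 to 0.426 from 1 to 10, 0.138 to 0.371 from 10 to 100, 0.0559 to 0.112 from 100 to 1000, and 0.0437 to 0.0974 at 1000 CPM or more. For SPNCRNA features it gave 0.0631 to 0.0979 under 1 CPM and 0.174 to 0.281 from 1 to 10 CPM, and for the median of the iron uptake genes 97.2 to 108 RPKM. The cause was not tested in any case. Depth limits values near 0, where 3 counts are 0.140 to 0.181 CPM per library.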
